A study of Mus musculus with 8 samples.

Results

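Cell homing in early B lymphopoiesis was examined through 8 receptor genes, *Cxcr4*, *Cxcr5*, *Cxcr3*, *Ccr2*, *Ccr7*, *Ccr9*, *S1pr1* and *S1pr4*, in RNA sequenced from sorted mouse bone marrow. The genes were listed by symbol, with earlier results of these data known. They make up 8 of the 27179 Entrez Gene identifiers that were counted. The 8 libraries fall into 4 groups of 2. Pre–proB, proB and preB cells, 3 successive stages of B cell development, came from Erg fl/fl mice, which carry floxed alleles of the transcription factor gene *Erg* and no *Rag1Cre*. The fourth group, called Erg-deficient below, held pre–proB cells from mice of the genotype Rag1Cre T/+;Erg Δ/Δ. Their Cre is active from the common lymphoid progenitor onwards and deletes floxed *Erg*, so the pair of pre–proB groups differs in Cre as well as in *Erg*. Mice were on a C57BL/6J background and 7 to 10 weeks old. The populations were sorted from 2 mice of each genotype, so p-values rest on 2 libraries a group. The spread behind them was estimated jointly over the groups and genes of a fit. All sort gates took B220+ cells without surface IgM, IgD, NK1.1 or CD11c. Pre–proB cells were CD43+ CD24-, proB cells CD43+ CD24+ and preB cells CD43- CD24+.

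Chemokine receptors and sphingosine 1-phosphate (S1P) receptors are seven-pass membrane proteins that signal mainly through inhibitory G proteins and steer cells along ligand gradients. In bone marrow, CXCL12 made by stromal cells holds B cell precursors in place through CXCR4, whereas S1P in blood draws cells out through S1PR1. CXCR5 and CCR7 lead mature lymphocytes into follicles and T cell zones, CCR9 serves homing to the thymus and small intestine, and CXCR3 and CCR2 guide cells to sites of inflammation. Several of these receptors are also carried by other marrow cells, such as plasmacytoid dendritic cells, natural killer (NK) cells and monocytes.

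Library totals ran from 15565381 to 18457632 counts. Values below are CPM (counts scaled to library size with TMM factors) for comparisons of a gene between groups, and FPKM (CPM per kilobase of exon) for comparisons between genes. The sort labels were checked against the mRNA of their surface markers. *Spn*, which encodes CD43, lay at 560 to 614 CPM in Erg fl/fl pre–proB, 251 to 272 in proB and 103 to 111 in preB, and *Cd24a* at 111 to 169 CPM, 2063 to 2081 CPM and 1784 to 1896 CPM. In Erg-deficient pre–proB cells *Spn* lay at 622 and 615 CPM. *Cd24a* lay there at 66.4 and 87.3 CPM, below both control libraries. *Erg* itself lay at 69.1 and 25.3 CPM in pre–proB controls and at 2.50 and 2.58 CPM in the Erg-deficient libraries, 18.7-fold lower (log2 fold change -4.23 ± 0.55 (SE), adjusted p = 0.0250, edgeR quasi-likelihood test). The controls of this gene thus differed between themselves, a spread that returns in *Cxcr5* and *S1pr1*.

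The 8 genes lie on 6 chromosomes. *Cxcr4* is on chromosome 1, *S1pr1* on 3, *S1pr4* on 10, *Ccr7* on 11 and *Cxcr3* on X, while *Cxcr5*, *Ccr9* and *Ccr2* are on chromosome 9. *Ccr9* (chr9:123767211-123783457, plus strand, GRCm38) and *Ccr2* (chr9:124101918-124109140, plus strand) belong to a block of chemokine receptor genes. The RefSeq promoter table of build GRCm38.p6 held 5 of the 8 genes. The bases before the first annotated exon are shown for 3 of them, *Ccr9* and *Cxcr3*, which fell together from pre–proB to proB, and *Cxcr4*, which rose. Each is written 5′ to 3′ on the strand of the gene, with capitals for matches to CGGAAG or AGGAAG, letters found in sites of ETS factors, the family of *Erg*, searched on both strands.
Ccr9 (chr9:123766961-123767168, plus strand): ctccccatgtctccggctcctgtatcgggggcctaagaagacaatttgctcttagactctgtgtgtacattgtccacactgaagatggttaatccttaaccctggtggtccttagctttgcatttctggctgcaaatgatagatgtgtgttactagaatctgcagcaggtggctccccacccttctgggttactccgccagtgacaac
Cxcr3 (chrX:101734270-101734397, minus strand): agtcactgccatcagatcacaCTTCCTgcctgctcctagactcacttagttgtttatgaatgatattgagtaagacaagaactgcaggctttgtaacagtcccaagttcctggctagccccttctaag
Cxcr4 (chr1:128592300-128592549, minus strand): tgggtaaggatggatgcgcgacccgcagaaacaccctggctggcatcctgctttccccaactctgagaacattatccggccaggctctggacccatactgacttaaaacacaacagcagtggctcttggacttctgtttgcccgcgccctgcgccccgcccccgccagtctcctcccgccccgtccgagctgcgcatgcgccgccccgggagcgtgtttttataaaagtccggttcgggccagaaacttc
The stretch of *Cxcr3* held 1 match, AGGAAG on the strand opposite to the gene, 229 bases before its start. The stretches of *Ccr9* and *Cxcr4* held none of these letters. Windows of the same length and place held a match in 19.3% of 27025 promoters for the *Cxcr3* window, 32.1% for that of *Ccr9* and 39.0% for that of *Cxcr4*.

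The make-up of the receptor transcripts changed most between pre–proB and proB cells. In Erg fl/fl pre–proB cells *Ccr9* led with 213 ± 21.5 FPKM (SD, n = 2), followed by *Cxcr4* with 103 ± 6.32, *Cxcr3* with 63.7 ± 2.19, *Ccr2* with 62.3 ± 8.15 and *S1pr4* with 35.8 ± 2.60 FPKM. *Ccr7*, *S1pr1* and *Cxcr5* stood below 10 FPKM. *Cxcr3* and *Ccr2* did not differ beyond their spread, since the *Ccr2* libraries at 68.0 and 56.5 FPKM enclosed those of *Cxcr3*. Here *Ccr9* made up 41.7% and 45.0% of the FPKM summed over the 8 receptors, and *Cxcr4* 20.9% and 21.3%. In proB cells *Cxcr4* made up 73.6% and 72.1% of the sum and *Ccr9* 1.08% and 1.53%. In preB cells *Cxcr4* again made up 73.6% and 72.2%, followed by *Ccr7*, *S1pr4* and *S1pr1*. In those cells *Ccr7* (35.5 and 43.0 FPKM), *S1pr4* (34.3 and 38.4) and *S1pr1* (29.8 and 33.8) stood next to each other, and the libraries of *Ccr7* and *S1pr4* overlapped. Levels in these bulk samples do not separate fewer cells carrying a transcript from less transcript per cell.

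**Figure D1:**
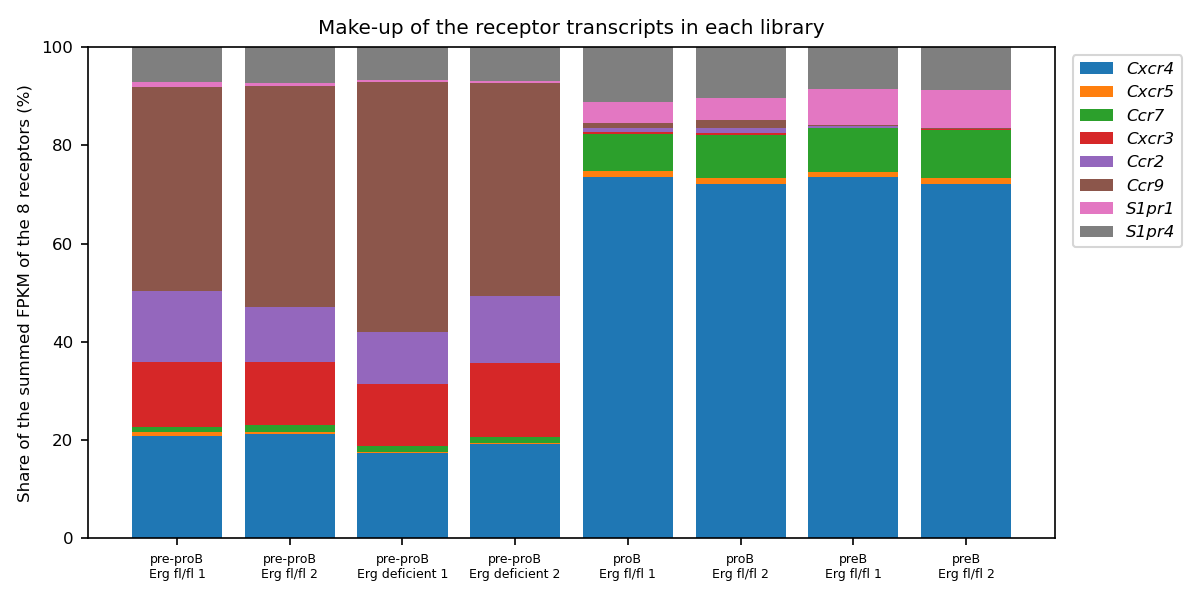
Share of each of the 8 receptor genes in their summed FPKM (percent, vertical axis), 1 bar for each of the 8 libraries. *Ccr9*, *Cxcr3* and *Ccr2* fill most of the 4 pre–proB bars of either genotype, while *Cxcr4* fills between 72.1% and 73.6% of the proB and preB bars.

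Stages of Erg fl/fl cells were compared in 1 edgeR fit of 6 libraries, with Benjamini-Hochberg adjustment over 13650 genes, and calls were made at an adjusted p under 0.05. From pre–proB to proB, 7 of the 8 receptors were called, 3 higher and 4 lower. Over all genes 73.0% were called, 36.2% higher and 36.8% lower, so the count of 7 lies near the background. From proB to preB all 8 were called, 5 higher and 3 lower, against 58.9% of all genes (29.0% higher, 29.9% lower). From pre–proB to preB 7 were called, 4 higher and 3 lower, against 70.7% (36.5% higher, 34.1% lower). The receptors were chosen with earlier results of these data known, so the size of their differences is given as a description only. The median absolute log2 fold change of the receptors was 1.62, 1.23 and 2.95 in these comparisons, against 0.69, 0.44 and 0.60 over all genes tested. The comparisons share libraries, and the third is the sum of the first and the second.

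*Cxcr4*, the receptor for CXCL12, rose at both steps. Its level was 179 and 195 CPM at the pre–proB stage, 316 and 301 at the proB stage and 533 and 571 at the preB stage. No library of a later stage overlapped with one of an earlier stage. The log2 fold change was 0.76 ± 0.08 (SE, adjusted p = 2.52e-05) from pre–proB to proB and 0.85 ± 0.08 (adjusted p = 3.71e-05) from proB to preB, so preB cells held 3.04-fold more than pre–proB cells.

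*Ccr7*, the receptor for CCL19 and CCL21, rose more steeply. It lay at 11.3 and 14.3 CPM at the pre–proB stage, 35.6 and 40.0 at the proB stage and 70.2 and 85.1 at the preB stage, again without overlap. The differences were 1.59 ± 0.14 (adjusted p = 1.27e-05) and 1.04 ± 0.12 on the log2 scale (adjusted p = 0.000166), 6.22-fold in all.

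*Cxcr5*, the receptor for CXCL13, had the lowest mean FPKM of the 8 in pre–proB cells (2.45 ± 0.80), where its libraries overlapped with those of *S1pr1* (3.41 ± 0.99). Its level was 7.89 and 4.92 CPM at the pre–proB stage, 7.10 and 7.05 at the proB stage and 10.8 and 14.0 at the preB stage. The pre–proB libraries enclosed the proB libraries, and the difference between these stages was 0.18 ± 0.23 on the log2 scale (adjusted p = 0.501). From proB to preB *Cxcr5* rose by 0.82 ± 0.22 (adjusted p = 0.0119). That call was lost when either proB library (adjusted p = 0.0543 without replicate 1 and 0.0670 without replicate 2) or preB replicate 2 (0.140) was left out. *Cxcr5* shares 109 bases of exon with *Bcl9l* on the opposite strand, and reads there cannot be assigned without strand, the use of which is not given in the sources used here.

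*Ccr9*, *Cxcr3* and *Ccr2* fell together and by far more. *Ccr9*, the receptor for CCL25, lay at 1040 and 1201 CPM at the pre–proB stage, 13.5 and 18.6 at the proB stage and 4.42 and 5.13 at the preB stage. The fall was 68.1-fold from pre–proB to proB (log2 fold change -6.09 ± 0.16, adjusted p = 1.14e-08) and 3.34-fold from proB to preB (-1.74 ± 0.19, adjusted p = 0.000115). Of the 13650 genes, 73 (0.535%), *Ccr9* included, fell at least as far as *Ccr9* at the first step.

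*Cxcr3*, the receptor for CXCL9, CXCL10 and CXCL11, lay at 108 and 113 CPM at the pre–proB stage, 1.80 and 2.16 at the proB stage and 0.523 and 0.394 at the preB stage. The preB values rest on 9 and 7 counts. *Cxcr3* fell 54.0-fold at the first step (-5.76 ± 0.11, adjusted p = 4.35e-09) and 4.27-fold at the second (-2.09 ± 0.25, adjusted p = 0.000190).

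*Ccr2*, the receptor for CCL2 and CCL7, lay at 204 and 170 CPM at the pre–proB stage, 5.57 and 6.38 at the proB stage and 3.43 and 1.07 at the preB stage. It fell 30.4-fold at the first step (-4.93 ± 0.22, adjusted p = 1.77e-07). The preB libraries differed 3.20-fold from each other (59 and 19 counts). The second step, -1.41 ± 0.36 (adjusted p = 0.00972), was -2.46 without preB replicate 1 and -0.84 without preB replicate 2 (adjusted p = 0.00148 and 0.0453). It was no longer called without proB replicate 2 (0.0543) or with robust estimation (0.0752).

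Marker genes of other cell types changed at the same step, at which 36.2% of all genes were called higher and 36.8% lower. Of 9 genes listed as plasmacytoid dendritic-like, all 9 fell from pre–proB to proB. Their summed level was 14634 and 15846 CPM at the Erg fl/fl pre–proB stage, 1317 and 1267 at the proB stage and 2776 and 2799 at the preB stage, and none of the 9 was at 0 in any group. *Siglech*, which encodes a lectin of plasmacytoid dendritic cells, fell by 6.18 ± 0.12, *Pacsin1* fell by 6.06 ± 0.10 and *Runx2* fell by 6.01 ± 0.11 on the log2 scale (adjusted p = 4.35e-09, 3.11e-09 and 4.35e-09), sizes close to that of *Ccr9*. The sum over preB cells came mostly from *Spib*, which rose from proB to preB by 1.67 ± 0.08 (adjusted p = 3.87e-06) and is also a B cell factor. Of 9 NK-like genes 8 fell from pre–proB to proB, with sums of 221 and 229 CPM at the pre–proB and 11.2 and 15.9 CPM at the proB stage. *Klrd1* alone held 174 and 174 CPM of the pre–proB sums. Of 9 myeloid-like genes tested (10 listed) 3 fell and 3 rose, with sums of 238 and 199 CPM at the pre–proB stage, 155 and 368 at the proB stage and 81.0 and 60.7 at the preB stage. Of 9 T-like genes 8 fell and 1 rose, with sums of 685 and 863 CPM at the pre–proB and 94.5 and 103 CPM at the proB stage, mostly *Cd4*, with 474 and 614 CPM in pre–proB, against 4.94 and 6.50 CPM for *Cd3e*. All 5 early-progenitor-like genes were called, 4 lower and 1 higher, with sums of 1620 and 1976 CPM at the pre–proB, 173 and 220 at the proB and 439 and 567 CPM at the preB stage. Of these *Flt3*, a cytokine receptor gene, fell by 4.45 ± 0.16 (adjusted p = 5.36e-08). Of 6 erythroid-like genes tested (7 listed) 5 rose, from sums of 2.76 and 3.71 CPM to 19.9 and 22.6 CPM. Of 6 mature B-like genes 3 rose and 2 fell, as did 3 and 2 of 5 plasma-like genes. None of the genes of these lists was at 0 in any group. The part of such cells in the fall of *Ccr9*, *Cxcr3* and *Ccr2* was not tested.

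**Figure D2:**
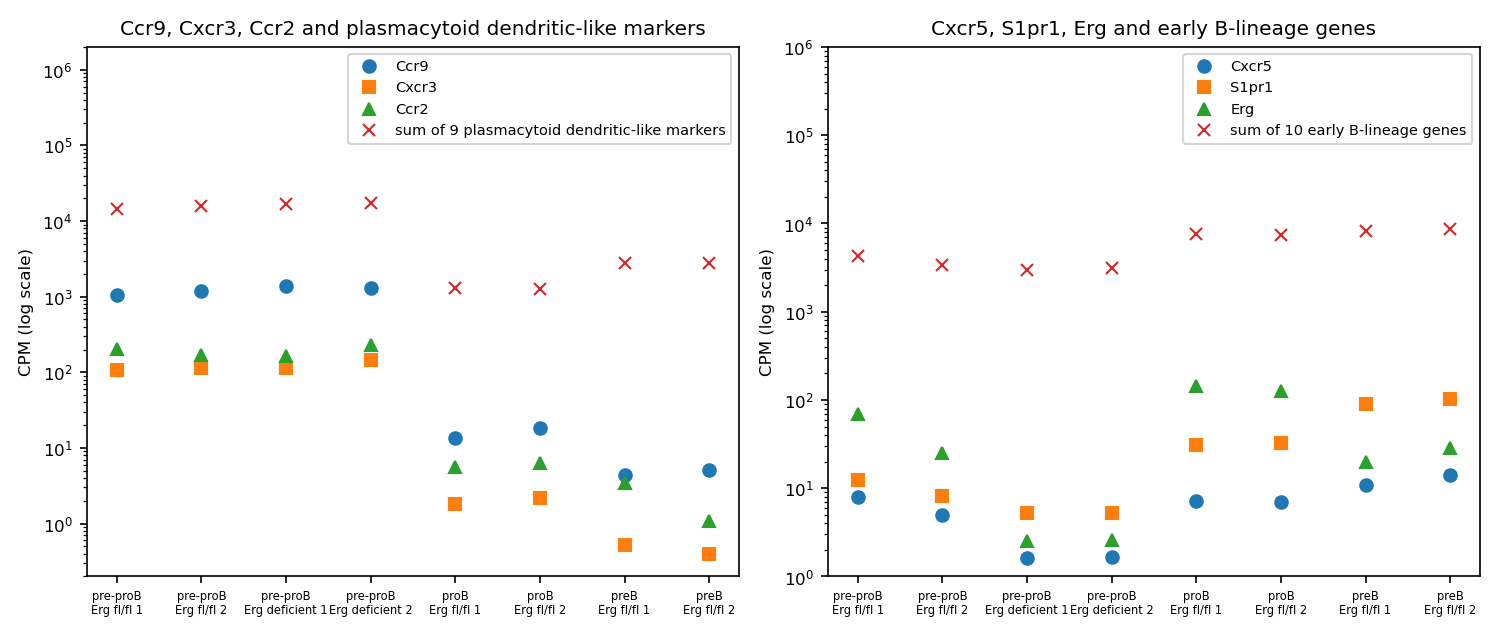
CPM on a log scale in each of the 8 libraries. Left, *Ccr9*, *Cxcr3* and *Ccr2* and the sum of 9 plasmacytoid dendritic-like markers, all high in the 4 pre–proB libraries; right, *Cxcr5*, *S1pr1*, *Erg* and the sum of 10 early B-lineage genes, all higher in Erg fl/fl pre–proB replicate 1 than in replicate 2.

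The S1P receptors took different courses. *S1pr1*, the receptor for egress towards blood, lay at 12.5 and 8.27 CPM at the pre–proB stage, 30.8 and 32.2 at the proB stage and 90.7 and 103 at the preB stage, with no overlap between stages. It rose by 1.64 ± 0.16 (adjusted p = 1.91e-05) and by 1.63 ± 0.13 on the log2 scale (adjusted p = 2.24e-05), 9.62-fold over both steps. *S1pr4*, a receptor found mainly on blood cells, stayed within a narrower range. It lay at 81.0 and 89.8 CPM at the pre–proB stage, 63.3 and 57.2 at the proB stage and 81.7 and 91.7 at the preB stage. It fell by 0.47 ± 0.09 (adjusted p = 0.00111) and then rose by 0.53 ± 0.09 (adjusted p = 0.000906). The libraries of pre–proB and preB cells overlapped (0.06 ± 0.09, adjusted p = 0.531). Per exon length, *S1pr4* exceeded *S1pr1* 8.27-fold and 13.9-fold in the pre–proB libraries, 2.62-fold and 2.27-fold in proB and 1.15-fold and 1.14-fold in preB.

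**Figure D3:**
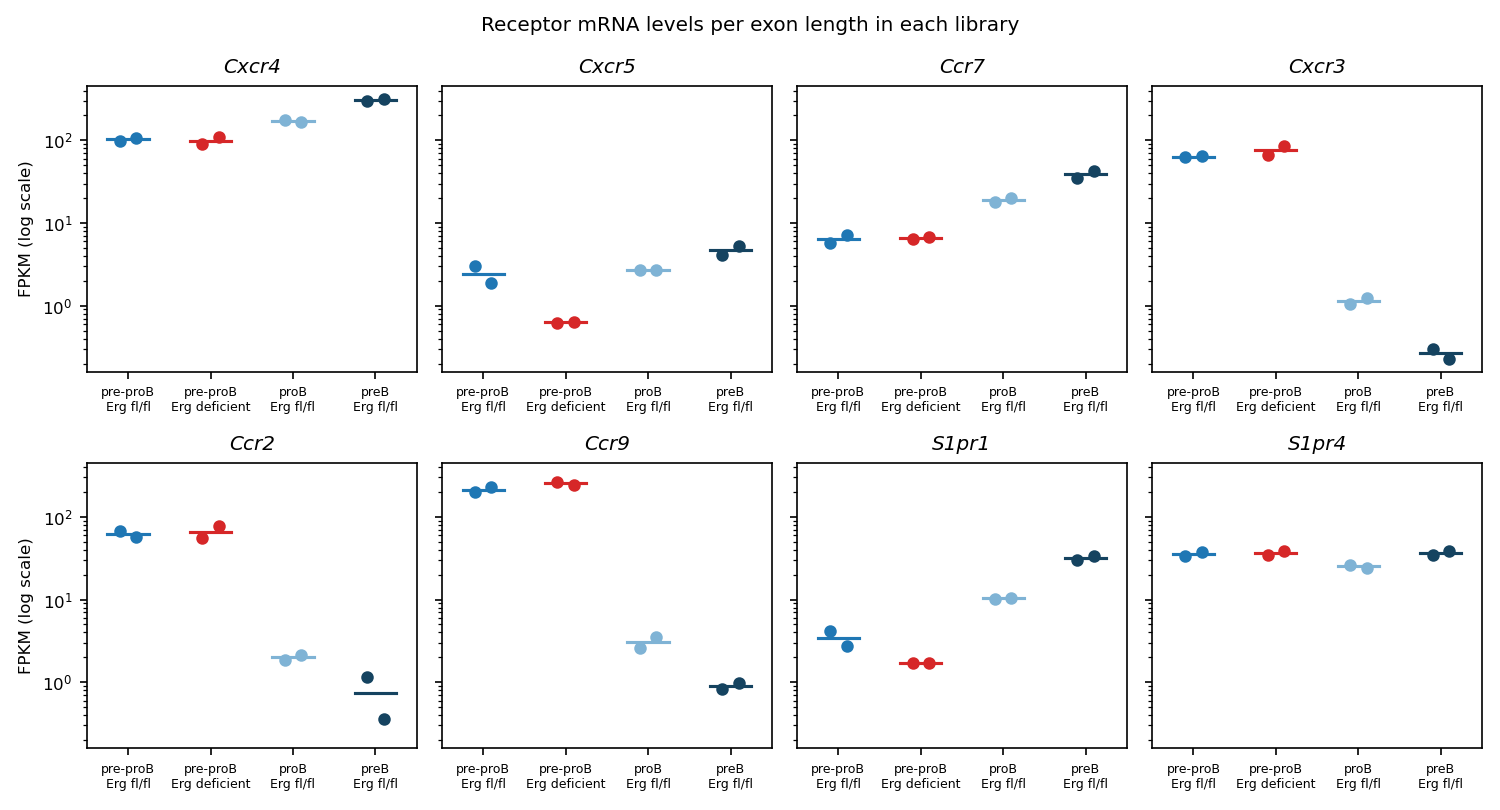
FPKM of each receptor (vertical axis, log scale) in the 4 groups, with 1 point a library and a line at the mean of the 2 libraries. *Cxcr4*, *Ccr7* and *S1pr1* climb from pre–proB to preB, and *Cxcr3*, *Ccr2* and *Ccr9* fall. Both Erg-deficient points lie below both Erg fl/fl pre–proB points for *Cxcr5* and *S1pr1*, and above them for *Cxcr3* and *Ccr9*. The share of all genes with such a gap was not counted.

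Erg-deficient pre–proB cells were set against their Erg fl/fl counterparts in a second fit of 4 libraries and 13005 genes, to ask which receptors differ when *Erg* is deleted. This comparison shares the Erg fl/fl pre–proB libraries with the stage comparisons. Of the 8 receptors 1, *Cxcr5*, was called, and it was lower. Over all genes 1.16% were called, 0.215% higher and 0.946% lower. With DESeq2 1 receptor was called and with limma-voom none, and 3 had an unadjusted p below 0.05. The median log2 fold change of the 8 receptors was 0.03, against 0.01 over all genes. Without regard to sign, the median absolute log2 fold change was 0.15, against 0.11.

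*Cxcr5* lay at 1.62 and 1.68 CPM in the Erg-deficient libraries, from 26 counts each, and at 7.89 and 4.92 CPM in the controls. The groups did not overlap. The difference was 3.90-fold (log2 fold change -1.96 ± 0.31, adjusted p = 0.0449), just inside the threshold. It was lower under all 14 alternatives tried, with log2 fold changes between -2.29 and -1.57, but was called under 7 of them. The call was lost without control replicate 1 (-1.57, adjusted p = 0.0756), without Erg-deficient replicate 1 (0.257) and without Erg-deficient replicate 2 (0.230), and with limma-voom (0.137), edgeR's version 4 method (0.0707), total counts (0.0520) or DESeq2 size factors (0.0502).

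*S1pr1* lay at 5.19 and 5.23 CPM in the Erg-deficient libraries and at 12.5 and 8.27 CPM in the controls, again without overlap. Its log2 fold change of -1.01 ± 0.24 did not pass the test (adjusted p = 0.125). It was called without control replicate 2 (-1.30, adjusted p = 0.0101) and with all 8 libraries in one fit (-0.99, adjusted p = 0.0268), whereas without control replicate 1 the adjusted p was 0.658.

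Of 10 early B-lineage genes 5 were lower in Erg-deficient pre–proB cells and none higher, with 5 called by DESeq2 and none by limma-voom. Among all genes edgeR called 0.946% lower and 0.215% higher. The 5 early B-lineage genes included *Rag1*, *Igll1*, *Vpreb1* and *Cd79a*, which encode a recombinase of antigen receptor genes, both parts of the surrogate light chain and a B cell receptor subunit. *Rag1* lay at 283 and 120 CPM in the controls and at 8.00 and 8.46 CPM in the deficient libraries (log2 fold change -4.63 ± 0.45, adjusted p = 0.0178). Control replicate 1 exceeded replicate 2 in *Rag1*, *Erg*, *Cxcr5* and *S1pr1* alike. The sums of the 10 genes were 4299 and 3417 CPM in the controls and 2967 and 3145 CPM in the deficient libraries, and none was at 0. Of 5 mature B-like genes tested (6 listed) *Ms4a1* was lower (-3.36 ± 0.50, adjusted p = 0.0403) and none was higher, while the sum of the list was 3630 and 3086 CPM in the deficient libraries against 2269 and 2606 CPM in the controls. DESeq2 called 2 of the 5, *Ms4a1* and *Cd74*, and limma-voom none. *Cd74*, the invariant chain gene, lay at 3453 and 2952 CPM against 2131 and 2462 (0.47 ± 0.11, adjusted p = 0.119). The share of B-lineage cells in each library and its part in the *Cxcr5* result was not tested.

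The other 6 receptors did not pass the test. *Ccr9* lay at 1383 and 1289 CPM in the deficient and 1040 and 1201 CPM in the control libraries, without overlap (log2 fold change 0.24 ± 0.09, adjusted p = 0.324). *Cxcr3* lay at 114 and 147 CPM against 108 and 113, also without overlap (0.23 ± 0.12, adjusted p = 0.486). *Ccr2* lay at 164 and 231 CPM and enclosed the controls at 204 and 170 (0.07 ± 0.17, adjusted p = 0.912). All 3 receptors thus stood at the high pre–proB level in both genotypes. *Cxcr4* lay at 162 and 196 CPM against 179 and 195 (-0.07 ± 0.10, adjusted p = 0.808). *Ccr7* lay at 12.7 and 13.6 CPM against 11.3 and 14.3 (0.03 ± 0.15, adjusted p = 0.967), and *S1pr4* at 82.7 and 93.1 CPM against 81.0 and 89.8 (0.03 ± 0.08, adjusted p = 0.922). For *Cxcr4*, *Ccr7* and *S1pr4* the libraries of the 2 genotypes overlapped. The sign turned for *Ccr7* and *S1pr4* under scaling to total counts, and for *Cxcr4*, *Ccr2*, *Ccr7* and *S1pr4* when certain single libraries were left out.

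The plasmacytoid dendritic-like sum was 16934 and 17309 CPM in the deficient libraries, above the 14634 and 15846 CPM of the controls, and none of its 9 genes was called by edgeR (2 at an unadjusted p below 0.05, 1 by DESeq2, none by limma-voom). Of 9 NK-like genes 5 were higher, among them *Ncr1* (3.01 ± 0.31, adjusted p = 0.0178), *Gzma* (3.17 ± 0.44, adjusted p = 0.0314), *Prf1* (2.04 ± 0.25, adjusted p = 0.0218) and *Klrk1* (1.17 ± 0.16, adjusted p = 0.0303). DESeq2 called 8 of the 9 and limma-voom none. Among all genes edgeR called 0.215% higher and 0.946% lower. The NK-like sums were 297 and 435 CPM against 221 and 229, of which *Klrd1* alone held 164 and 220 CPM against 174 and 174. *Klrb1c*, the gene of NK1.1, was detected although the gate left out cells with surface NK1.1, at 20.8 and 34.9 CPM against 11.1 and 7.78. Deficient replicate 2 was the higher in the NK-like sum and in every receptor but *Ccr9*, an order of 2 libraries that was not tested. The T-like sum was 1511 and 887 CPM against 685 and 863, with 0 of 9 genes called (2 at an unadjusted p below 0.05, none by DESeq2 or limma-voom). Of this sum *Cd4* held 1214 and 623 CPM against 474 and 614, and *Cd8a* 185 and 126 against 112 and 121. *Cd3e* lay at 5.00 and 4.84 CPM against 4.94 and 6.50. Of 9 myeloid-like genes *S100a9* was lower (-2.31 ± 0.35, adjusted p = 0.0407; DESeq2 called 3 of the 9 and limma-voom none), with sums of 161 and 141 CPM against 238 and 199. The part of these cells in the receptor levels was not tested.

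**Figure D4:**
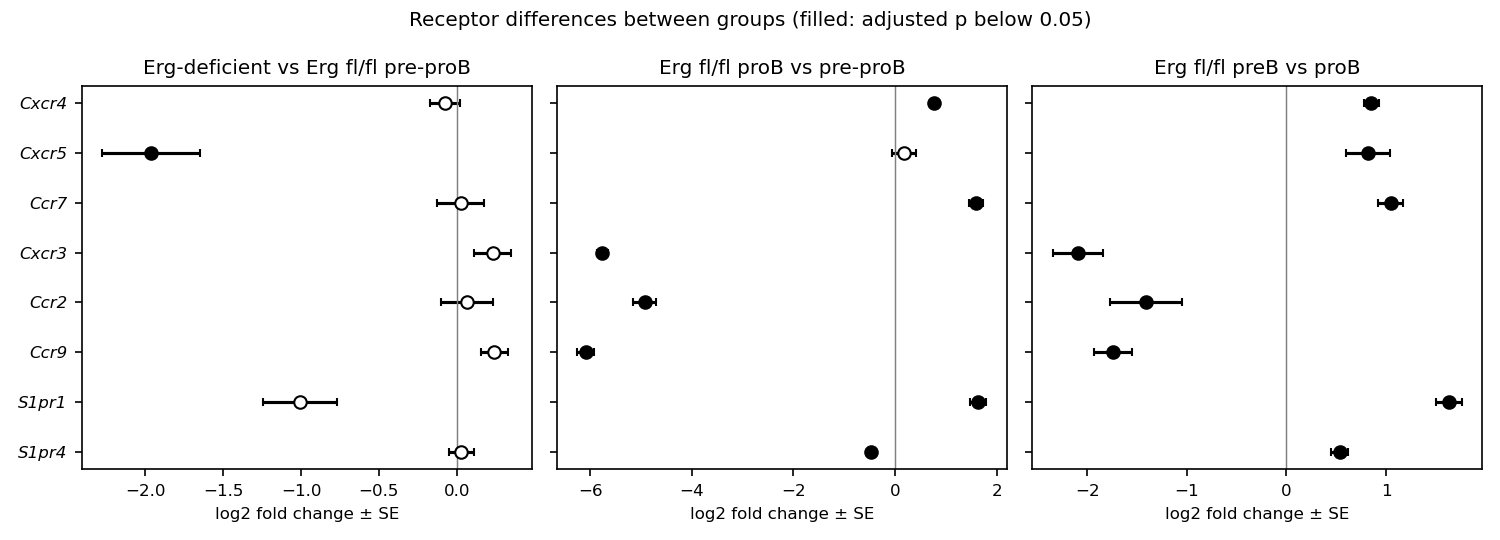
Log2 fold change of each receptor with its standard error in 3 comparisons, filled where the adjusted p was below 0.05; the horizontal scales differ between panels. In Erg-deficient pre–proB cells *Cxcr5* is the single filled point at -1.96, whereas from pre–proB to proB *Ccr9*, *Cxcr3* and *Ccr2* lie between -6.09 and -4.93.

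Of 17 further chemokine receptor genes 10 reached the stage fit, and 6 fell and none rose from pre–proB to proB. Among all genes 36.8% fell and 36.2% rose at this step. *Cx3cr1*, the receptor for CX3CL1, fell by 4.87 ± 0.42 (adjusted p = 9.56e-06) and *Ccr6*, the receptor for CCL20, by 3.73 ± 0.46 (adjusted p = 9.40e-05). From proB to preB 1 of the 10 rose, *Ccrl2* (0.92 ± 0.25, adjusted p = 0.0114), and 3 fell. Here 29.0% of all genes rose and 29.9% fell. The scavenger receptor gene *Ackr3*, which binds CXCL12, was without a count in the pre–proB libraries of both genotypes.

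Among 5 other receptors for guiding lipids, *Cnr2*, the type 2 cannabinoid receptor, followed the rise of *S1pr1*. It lay at 4.30 and 4.32 CPM at the pre–proB stage, 11.5 and 12.1 at the proB stage and 66.6 and 79.3 at the preB stage (1.49 ± 0.14 and 2.63 ± 0.11 on the log2 scale, adjusted p = 1.72e-05 and 2.51e-06). *Gpr183*, an oxysterol receptor, fell by 3.98 ± 0.20 (adjusted p = 3.78e-07) and then rose by 1.75 ± 0.23 (adjusted p = 0.000268), and in preB cells it was still 4.69-fold below pre–proB cells (-2.23 ± 0.17, adjusted p = 5.62e-06). *S1pr3* fell by 2.85 ± 0.28 (adjusted p = 2.08e-05) and rose by 1.88 ± 0.29 (adjusted p = 0.000668), and it too was lower in preB than in pre–proB cells (-0.97 ± 0.24, adjusted p = 0.00626). Of 10 ligand genes for the 8 receptors, 2 reached the stage fit and neither was called (none at an unadjusted p below 0.05, by DESeq2 or by limma-voom). Among 6 genes of S1P turnover the exporter *Spns2* rose by 0.69 ± 0.15 and 1.77 ± 0.13 (adjusted p = 0.00323 and 1.69e-05), while the lyase *Sgpl1* and the phosphatase *Sgpp1* fell from pre–proB to proB by 1.38 ± 0.06 and 1.23 ± 0.06 (adjusted p = 2.21e-07 and 2.47e-07).

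Of 31 signalling genes downstream of the receptors 10 rose and 17 fell from pre–proB to proB, and 14 rose and 7 fell from proB to preB. At these steps 36.2% and 29.0% of all genes were called higher, and 36.8% and 29.9% lower. *Rgs18*, a regulator of G protein signalling, fell by 3.20 ± 0.10 (adjusted p = 2.52e-08), as did *Rgs10*, by 3.13 ± 0.12 (adjusted p = 6.88e-08), and *Gng2*, a G protein γ subunit, by 2.26 ± 0.08 (adjusted p = 3.78e-08). *Rgs2* rose by 1.74 ± 0.08 from proB to preB (adjusted p = 3.87e-06). Of 16 adhesion and retention genes 5 rose and 9 fell from pre–proB to proB. The integrin gene *Itgb7*, part of the receptor for the gut addressin, fell by 5.45 ± 0.19 (adjusted p = 4.99e-08), *Itgal* by 3.32 ± 0.10 (adjusted p = 1.76e-08) and the selectin ligand gene *Selplg* fell by 3.06 ± 0.08 (adjusted p = 1.34e-08). From proB to preB 6 rose and 6 fell, with *Klf2*, a transcription factor, up by 2.16 ± 0.09 (adjusted p = 2.81e-06) and *Cd69*, which binds S1PR1, up by 1.12 ± 0.10 (adjusted p = 4.02e-05). In Erg-deficient against Erg fl/fl pre–proB cells, none of the 68 tested genes of these 6 lists was called by edgeR or limma-voom. Among all genes edgeR called 1.16%. Of the 68 genes, 16 had an unadjusted p below 0.05, and DESeq2 called 3, *Foxo1*, *Klf2* and *S1pr5*.

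The genes whose levels ran most like each receptor were sought over the 8 libraries by Pearson's r of log2(CPM + 1), among 13477 other genes with a symbol and at least 0.5 CPM in 2 libraries. These r values describe 8 libraries in 4 groups and rest mainly on the differences between stages. *S1pr1* ran closest to *Foxo1* (r = 0.998), a transcription factor gene that lay at 118, 217, 389 and 87.6 CPM (mean of 2) in Erg fl/fl pre–proB, proB, preB and Erg-deficient pre–proB cells, then to *Sorcs2* and *Cd55* (both 0.997). *Cxcr5* ran closest to *Sertad4* (0.991), *Steap4* and *2310033P09Rik* (both 0.985). *Sertad4* lay at 7.97, 12.5, 51.0 and 0.0312 CPM, and *Steap4*, a metalloreductase gene, at 18.0, 41.4, 135 and 0.790 CPM in the same groups. Among the genes closest to *Cxcr3* were *Sla2* (0.9998) and *Sema4c* (0.9997), and *Ccr9* ran closest to *Nrp1* (0.9998), *Csf2rb2* and *Tbc1d8* (both 0.9997), which lay at 165, 1123 and 847 CPM in Erg fl/fl pre–proB cells and at 5.45, 19.0 and 14.6 CPM in proB cells. *Ccr2* ran closest to *Srl* (0.998), *Cd244a* and *Hmgn3* (both 0.997), *Cxcr4* to *Tlk2* (0.999), *Add3* (0.998) and *Scaf8* (0.997), *Ccr7* to *Dstn*, *Cyp39a1* and the mitochondrial *CYTB* (0.994 each) and *S1pr4* to *Alyref2* (0.989), *Sqstm1* (0.983) and *Miga1* (0.982). Among the receptors themselves *Cxcr3*, *Ccr2* and *Ccr9* gave r between 0.991 and 0.998 with each other, *Cxcr4*, *Ccr7* and *S1pr1* between 0.962 and 0.985, and *S1pr4* between -0.230 and 0.448 with the other receptors.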

How the data were processed

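RNA was sequenced from 8 libraries of sorted bone marrow cells in 4 groups of 2. The authors trimmed reads with Trim Galore, aligned them to mm10 with STAR, counted reads per gene with featureCounts against the Entrez Gene annotation that Rsubread carries, and deposited whole-number counts per gene without normalization. For the STAR version, the strand setting and multimapping reads nothing is given in the sources used here. Library totals ran from 15565381 to 18457632, at which 3 counts correspond to less than 0.2 CPM. Symbols matched 25275 of 27179 identifiers through RefSeq, and the other 1904 hold 0.577% of counts.

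CPM were computed with TMM factors (0.952 to 1.05), and FPKM as CPM per kilobase of exon in GENCODE M21 transcripts linked to RefSeq. Tests used edgeR 4.0.16 (R 4.3.3, legacy quasi-likelihood F-test) in a fit of the 4 pre–proB libraries and a fit of the 6 Erg fl/fl libraries, on genes with at least 0.5 CPM in 2 libraries, with Benjamini-Hochberg adjustment over all genes of the fit. Each standard error was taken as log2 fold change over the root of F. The procedure was tested on simulated data. Replicates differed by more than counting error (chi-square per degree of freedom 3.82 to 8.29). Members and lists were chosen with earlier results of these data known. Named genes were the 8 receptors, up to 4 called genes with the lowest p in each list and comparison, and the 3 genes most like each receptor; any other gene was chosen after its values were seen. Some genes that this rule names are not reported here. Alternatives were DESeq2 size factors, total counts, no filter, at least 1 CPM in 2 libraries, DESeq2 1.42.0, limma-voom (limma 3.58.1), robust estimation, edgeR's version 4 method, 1 fit of all 8 libraries, the replicate number as a block, each library left out in turn, and CPM in place of FPKM.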

Additional observations from a re-analysis of the deposited data

How the results depend on the processing

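Over the 3 stage comparisons the count of receptors called stayed within 1.5 times its value under every alternative, and the fold changes of *Cxcr4*, *Ccr7*, *S1pr1*, *Ccr9* and *Cxcr3* kept their direction and their call under all 16 alternatives. In Rag1Cre T/+;Erg Δ/Δ against Erg fl/fl pre–proB cells the count was 1, and it became 0 with DESeq2 size factors, total counts, limma-voom or edgeR's version 4 method and 2 with all 8 libraries in one fit, where *S1pr1* joined *Cxcr5*. With each library left out in turn it ranged from 0 to 2; without control replicate 2 it was 2, and without control replicate 1 or either deficient library it was 0. Over all genes the calls of that comparison ranged from 10 without deficient replicate 2 to 442 with all 8 libraries in one fit, against 151; they were 16 without deficient replicate 1, 401 without control replicate 2, 400 with DESeq2, 41 with limma-voom, 88 with the version 4 method and 279 without a filter. A lone library was assumed to vary like the other group. Among fold changes that were not called, the sign turned with total counts for *Ccr7* (-0.0089) and *S1pr4* (-0.0048). With each library left out the range was -0.22 to 0.056 for *Cxcr4*, -0.20 to 0.29 for *Ccr2*, -0.13 to 0.19 for *Ccr7* and -0.058 to 0.11 for *S1pr4* in that comparison, -0.15 to 0.50 for *Cxcr5* from pre–proB to proB, and -0.076 to 0.15 for *S1pr4* from pre–proB to preB. From pre–proB to preB the call of *Cxcr5* was lost without preB replicate 2 (adjusted p = 0.0559). Ranked by mean CPM in place of FPKM, *Cxcr4* was followed in preB cells by *S1pr1* (96.8 CPM), *S1pr4* (86.7) and *Ccr7* (77.6). *S1pr1* thus stood above both *S1pr4* and *Ccr7*, though the libraries of *S1pr1* and *S1pr4* overlapped. *Ccr2* ranked ahead of *Cxcr4* in pre–proB cells of either genotype, but their libraries overlapped (means of 186.8 and 186.7 CPM in the controls). These changes of rank come from the division by exon length. The cause of the other shifts was not tested.

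With the replicate number as a block, 1, 7, 8 and 7 receptors were called, as without it, and *Cxcr5* had a log2 fold change of -1.94 (adjusted p = 0.0455) in deficient pre–proB cells. Over all genes of that comparison the block moved the calls from 151 to 265. Deviations of same-numbered libraries correlated between -0.03 and 0.17 over genes. The labels do not name the mouse of a library, same-numbered libraries were therefore not taken as pairs, and a shared mouse between stages was not tested.

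With 2 libraries a group, outliers could not be tested. Counts under 30 lie behind *Cxcr5* in the deficient libraries, *Cxcr3* in preB cells and *Ccr2* in 1 preB library, and low levels there are the least precise.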
